A study of Rattus norvegicus with 30 samples.

Results

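Calcium entering a neuron is bound within moments by small soluble proteins with EF-hand loops. Some of these proteins chiefly hold calcium and so shape the size and length of the signal. Others change shape when they bind calcium and pass the signal on, and a further pair of small proteins binds calmodulin, the general calcium sensor of the cell, and sets how readily it responds. In the hippocampus calbindin is known from dentate granule cells, parvalbumin and calretinin from separate classes of inhibitory neurons, and hippocalcin and neurogranin from principal cells.

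The genes described here are 8 such buffers and sensors, chosen by symbol: Calb1 (calbindin), Calb2 (calretinin), Pvalb (parvalbumin), Hpca (hippocalcin), Vsnl1 (a visinin-like protein), Ncald (neurocalcin), Pcp4 (a small calmodulin-binding protein first known from Purkinje cells) and Nrgn (neurogranin). Every probe set annotated to exactly 1 of these symbols was taken, which gave 8 probe sets for 7 of the 8 genes, out of 7006 probe sets for 4736 genes. Nrgn had a pair, L09119_at and L09119_g_at, which share their source sequence and are not independent. No probe set was annotated to Ncald alone, so Ncald was not analysed here. All 8 probe sets passed the filter on dim signals, which asks for a signal above 35.2 on at least 3 of 30 arrays.

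Rats were given kainate, an agonist of glutamate receptors that is used to evoke seizures, or phosphate-buffered saline (PBS), and total RNA of the hippocampus was hybridised to Affymetrix arrays at 1, 6, 24, 72 and 240 h. Each of the 10 groups, kainate and PBS at every time, had 3 arrays. Strain, genotype, sex, age, dose, route and seizure scores are not given in the sources used here, nor whether each array held 1 animal. The p-values therefore measure the spread between these arrays, and the number of arrays limits their precision.

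Replicate arrays of a group were alike, with a median Pearson r of 0.947, and no pair of arrays fell short of 0.885. The treatment labels were checked with immediate early genes, which neurons switch on after strong activity: 6 of 6 measured ones rose at 1 h and at 6 h. Egr2 averaged 452.7 ± 55.1 after kainate and 47.1 ± 21.1 after PBS at 1 h (SD, n = 3 each). Of 18 neuron markers 13 were tested, and none of these was at the floor on a PBS array. The 5 tested markers of neighbouring regions were Ttr, Kl, Prlr, Drd1 and Adora2a. Their summed signal ranged from 323 to 5278 over the kainate arrays and from 302 to 4187 over the PBS arrays. Single arrays thus differed widely in this sum whatever their group. By median PBS signal Ttr was the largest, at 1266, and the next was Adora2a, at 83.2. So wide a range chiefly shows Ttr, and does not show that several regions varied. The part of this sum in the values below was not tested.

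The members were chiefly lower at 24 h. Hpca, Vsnl1, Pvalb and both Nrgn probe sets fell at that time, to between 0.639 and 0.688 of PBS, which was 5 of 8 member probe sets. Over all 6303 probe sets tested, 11.3% passed at 24 h in either direction and 6.3% passed as lower. Since the members were chosen with earlier results of these data known, these shares are background and not a test of the set. Calb1, Calb2 and Pcp4 did not pass. Differences are given as log2 kainate minus PBS with the standard error of the fit, tested with limma and adjusted over all tested probe sets. In RNA of whole tissue, fewer cells of a type and less RNA per cell cannot be told apart.

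Hippocalcin is a myristoylated sensor that moves to membranes when calcium rises. At 24 h the Hpca signal was 916, 990.5 and 919.7 on the kainate arrays, against 1604, 1378 and 1446 on the PBS arrays. The 3 kainate arrays lay close together and all were below the lowest PBS array. The log2 difference was -0.65 ± 0.12, a fold of 0.639 with a 95% confidence interval of 0.536 to 0.762 (limma adjusted p = 0.000974).

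Visinin-like proteins belong to the same sensor family as hippocalcin. Vsnl1 gave 422, 412 and 457 after kainate, against 635, 573 and 668 after PBS at 24 h. Here too the groups did not overlap. The log2 difference was -0.54 ± 0.13, a fold of 0.688 with an interval of 0.574 to 0.826 (limma adjusted p = 0.00688).

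Neurogranin binds calmodulin when calcium is low and releases it when calcium rises. The L09119_g_at probe set read 1985, 2236 and 1817 on the kainate arrays at 24 h, against 2789.9, 3089 and 3072 on the PBS arrays. The other Nrgn probe set, L09119_at, read 1099, 1284 and 865 after kainate, against 1597, 1616 and 1561 after PBS. On both, every kainate array was below every PBS array, and the third kainate array was the lowest. Their log2 differences were alike, -0.57 ± 0.12 for L09119_g_at (limma adjusted p = 0.00314) and -0.57 ± 0.14 for L09119_at (limma adjusted p = 0.0103). Without the third kainate array L09119_at no longer passed (limma adjusted p = 0.101).

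Parvalbumin is a calcium buffer of a class of inhibitory neurons. At 24 h Pvalb was at 143, 125 and 87.3 after kainate, against 168, 174 and 169 after PBS. The PBS arrays lay within a narrow range, and the kainate arrays were spread out below it. The log2 difference was -0.55 ± 0.18 (limma adjusted p = 0.0452). This call is the least firm of the 5, since it was lost in 10 of 14 fits. Without the third kainate array the difference was -0.35 (limma adjusted p = 0.288). Without the second kainate array it was -0.61 (0.0505), and without the first, the second or the third PBS array it was -0.56, -0.54 or -0.56 (0.0817, 0.104 and 0.0979). Quantile normalization gave -0.48 (0.0854) and array weights -0.51 (0.133), and the smaller sets of arrays left it at -0.55 (0.166 with the 6 arrays of 24 h and 0.0849 with those of 1, 24 and 240 h).

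The other buffers did not pass at 24 h. Calb2, the calretinin gene, read 274, 298 and 254 after kainate, against 302, 397 and 406 after PBS. Its groups did not overlap, by a small margin, and the log2 difference was -0.41 ± 0.14 (limma adjusted p = 0.0598). Without the first PBS array, the lowest of its group, Calb2 passed (-0.55, limma adjusted p = 0.0226). Calb1, the calbindin gene, read 266, 371 and 269 after kainate, against 456, 315 and 399 after PBS. The second kainate array exceeded the second PBS array, so the groups overlapped, and the log2 difference of -0.37 ± 0.19 did not pass (limma adjusted p = 0.212).

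Pcp4 ran the other way. Its protein, like neurogranin, binds calmodulin through an IQ motif. The signal at 24 h was 744, 857 and 977 on the kainate arrays, against 657, 591 and 692 on the PBS arrays. All kainate arrays were above all PBS arrays, but the log2 difference of 0.40 ± 0.15 did not pass (limma adjusted p = 0.0700). Its 95% confidence interval, as a fold, ran from 1.08 to 1.63. Without the first kainate array it passed at 0.50 (limma adjusted p = 0.0479).

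**Figure D1:**
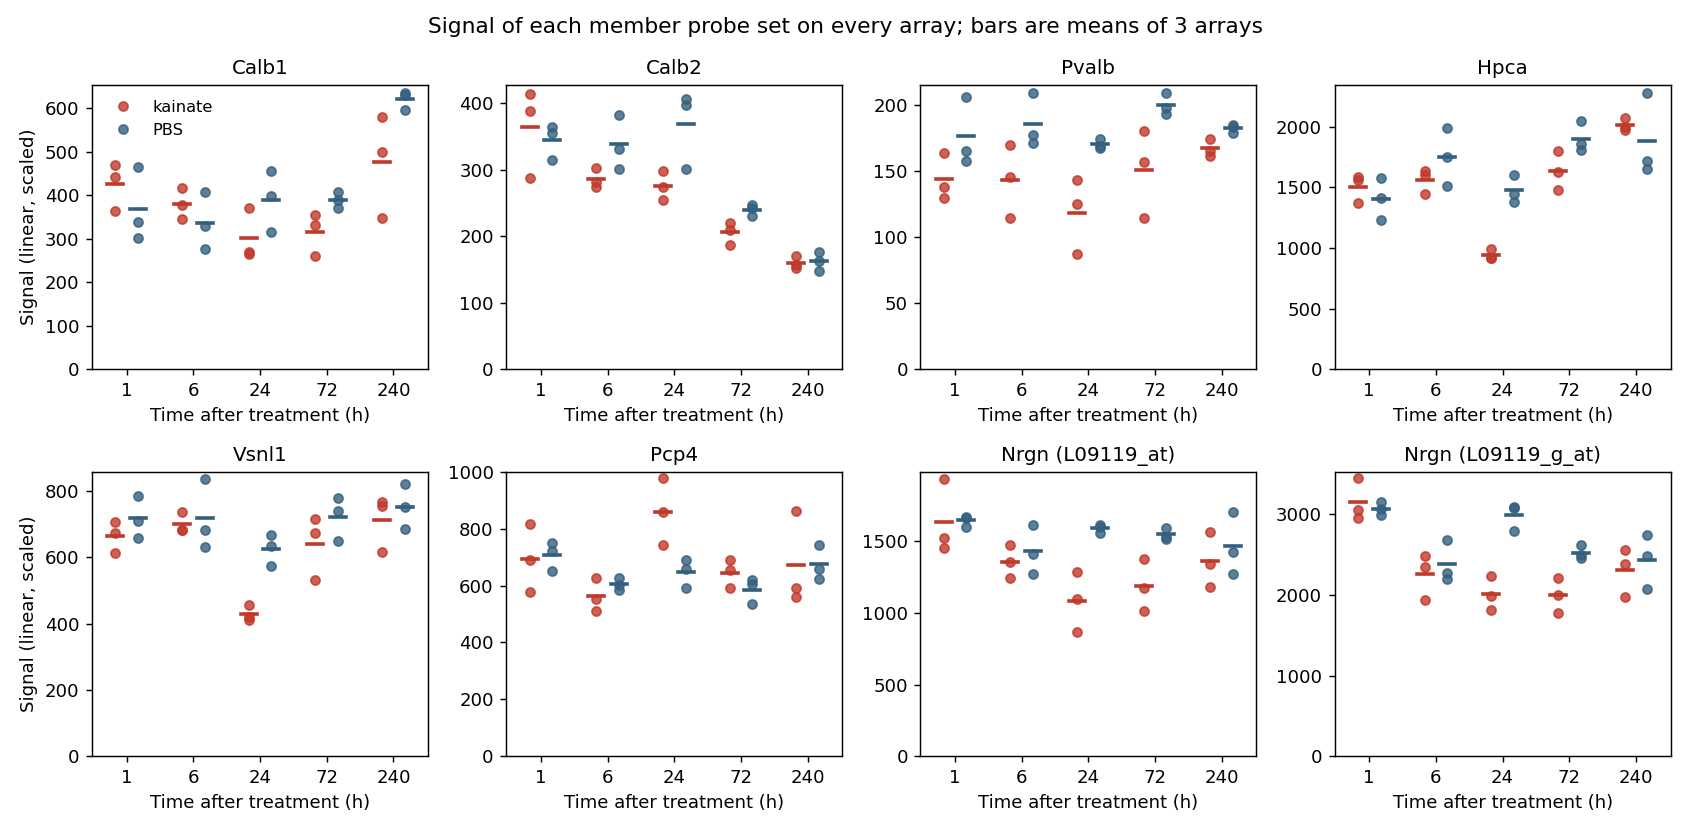
Signal of each member probe set (linear scale, arrays scaled to a common trimmed mean) against time after treatment in hours, with kainate arrays left of PBS arrays at each time, 1 point per array and a bar at the mean of 3. At 24 h the kainate points of Hpca, at 916 to 990.5, lie below its PBS points, at 1378 to 1604, while those of Pcp4, at 744 to 977, lie above its PBS points, at 591 to 692.

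Promoter sequence is shown for the members that fell together at 24 h and for Pcp4, which did not. Each is the 250 bases before the annotated start in RefSeq's GRCr8 tables, 5′ to 3′ on the strand of the gene. The 5 members with an entry were Hpca (chr5:146748359-146748608, minus strand), Vsnl1 (chr6:39878557-39878806, minus), Pvalb (chr7:111666290-111666539, minus), Nrgn (chr8:45452418-45452667, minus) and Pcp4 (chr11:49269936-49270185, plus). For Hpca, Pvalb and Pcp4 this start lies inside the annotated span of the gene. Capitals mark TGACG, the core of the cAMP response element through which calcium signals reach genes, and CCAAT, on either strand.
Hpca: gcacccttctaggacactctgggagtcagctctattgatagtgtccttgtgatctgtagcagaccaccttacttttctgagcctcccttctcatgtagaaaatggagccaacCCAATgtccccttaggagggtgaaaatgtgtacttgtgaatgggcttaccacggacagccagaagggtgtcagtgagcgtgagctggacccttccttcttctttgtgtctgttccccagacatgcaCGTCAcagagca
Vsnl1: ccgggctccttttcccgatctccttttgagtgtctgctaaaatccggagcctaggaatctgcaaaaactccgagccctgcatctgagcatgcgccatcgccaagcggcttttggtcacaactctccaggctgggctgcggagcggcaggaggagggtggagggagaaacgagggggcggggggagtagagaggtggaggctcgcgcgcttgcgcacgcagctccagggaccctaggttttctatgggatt
Nrgn: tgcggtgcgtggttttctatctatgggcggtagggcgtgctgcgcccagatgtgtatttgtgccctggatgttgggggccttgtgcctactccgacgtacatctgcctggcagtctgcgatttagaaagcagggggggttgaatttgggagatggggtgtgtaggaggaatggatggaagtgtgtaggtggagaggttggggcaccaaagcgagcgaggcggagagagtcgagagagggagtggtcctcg
Pvalb: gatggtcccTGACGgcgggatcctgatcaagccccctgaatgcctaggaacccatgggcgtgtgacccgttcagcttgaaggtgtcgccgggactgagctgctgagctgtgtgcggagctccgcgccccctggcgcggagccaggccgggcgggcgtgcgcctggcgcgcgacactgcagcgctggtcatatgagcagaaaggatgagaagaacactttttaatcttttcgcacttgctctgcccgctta
Pcp4: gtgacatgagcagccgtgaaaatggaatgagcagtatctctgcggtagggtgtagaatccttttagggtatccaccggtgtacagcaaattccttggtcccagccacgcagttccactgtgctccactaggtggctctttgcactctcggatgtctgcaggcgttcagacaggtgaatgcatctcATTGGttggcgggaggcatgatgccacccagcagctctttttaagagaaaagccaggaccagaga

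The 5 promoters do not share a motif among those searched. TGACG was found in Hpca, beginning 12 bases before the start, and in Pvalb, 241 bases before it, and 18.2% of all 33469 promoters hold it. CCAAT was found in Hpca, 138 bases before the start, and in Pcp4, 65 bases before it, against 34.0% of all promoters. The GC box GGGCGG was present in Vsnl1, Nrgn and Pvalb and in 30.5% of all promoters. TGACGTCA, which contains TGACG, the AP-1 site TGANTCA, the TATA box TATAAA and the Egr site GCGTGGGCG had no match in the 5 windows, and are found in 1.59%, 6.34%, 12.9% and 0.478% of promoters. Both strands were searched. GC content was 50.8% in Hpca, 60.8% in Vsnl1, 58.0% in Nrgn, 62.8% in Pvalb and 52.4% in Pcp4, beside a median of 51.2% over all promoters.

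At the other times no member probe set passed. At 1 h the count was 0 of 8, with a smallest limma adjusted p of 0.657 where 1.09% of all probe sets passed. None had an unadjusted p under 0.05, which 610 of all 6303 probe sets had. At 6 h it was 0 of 8, with a smallest adjusted p of 0.305, while 3.93% passed overall. An unadjusted p under 0.05 was found for 1 member probe set and for 928 of all. At 72 h and 240 h it was 0 of 8 as well, with smallest adjusted p-values of 0.546 and 0.378. At 72 h 3 member probe sets and 399 of all had an unadjusted p under 0.05, and at 240 h 1 member probe set and 767 of all had one. In each of these late comparisons 0.0476% of all probe sets passed after adjustment, which is 3 probe sets.

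The medians of the 8 member probe sets give the time course in brief. In time order, on the log2 scale, they were 0.01, -0.10, -0.55, -0.27 and -0.08, and the medians over all tested probe sets were -0.04, -0.11, -0.05, -0.04 and 0.03. At 24 h and 72 h the members' median was thus lower than that of all probe sets by more than at the other times, although only the first of these holds members that passed.

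Counts of probe sets whose groups did not overlap followed a similar course. At 1 h no member separated, where 10.3% of all probe sets did. At 6 h 1 of 8 did, Pvalb, against 27.7% overall. At 24 h 7 of 8 separated, 6 with kainate lower and Pcp4 with kainate higher, against 28.1%. At 72 h 6 of 8 separated, all with kainate lower, against 22.1%, and at 240 h 2 of 8 did, Calb1 and Pvalb, both with kainate lower, against 14.5%.

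**Figure D2:**
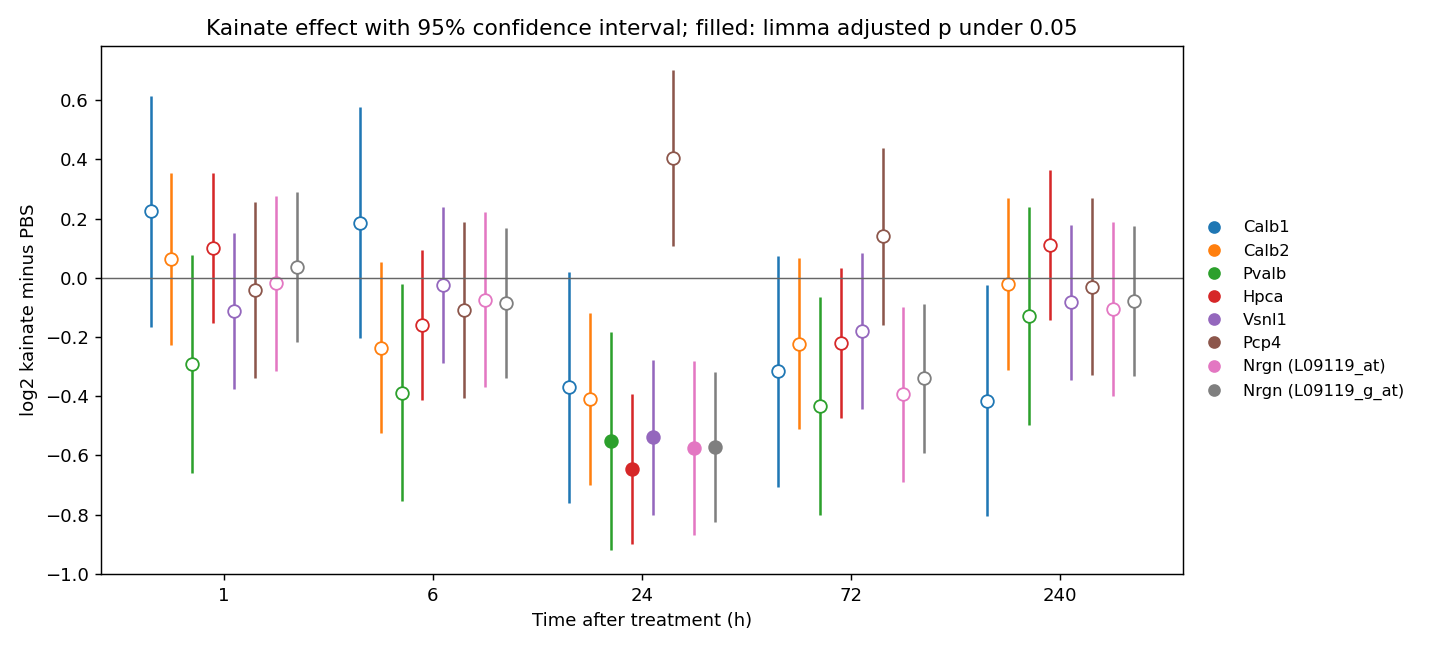
Difference of each member probe set (log2 kainate minus PBS, vertical axis) with its 95% confidence interval at 1, 6, 24, 72 and 240 h (horizontal axis), filled where the limma adjusted p is under 0.05. Filled points occur at 24 h alone, at -0.65 for Hpca, -0.57 for both Nrgn probe sets, -0.55 for Pvalb and -0.54 for Vsnl1.

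At 72 h no member passed, and the groups of 6 member probe sets did not overlap. Nrgn L09119_g_at read 1780.0, 2212 and 2004 after kainate, against 2616, 2489 and 2458 after PBS, a log2 difference of -0.34 ± 0.12 (limma adjusted p = 0.546). Nrgn L09119_at read 1012, 1379 and 1171 after kainate, against 1596, 1516 and 1530.4 after PBS, a difference of -0.39 ± 0.14 (limma adjusted p = 0.546). Neither passed, though no kainate array reached a PBS array on either probe set.

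Pvalb at 72 h was at 115, 181 and 157 after kainate, against 193, 198 and 209 after PBS, with a log2 difference of -0.43 ± 0.18 (limma adjusted p = 0.720). Hpca was at 1477, 1802 and 1626 after kainate, against 1853, 1806 and 2045 after PBS, with a difference of -0.22 ± 0.12 (limma adjusted p = 0.820). Its highest kainate array was just short of its lowest PBS array. Vsnl1 was at 533, 715 and 675 after kainate, against 648, 739 and 779 after PBS, and its groups overlapped.

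The calretinin and calbindin genes were also without overlap at 72 h. Calb2 read 188, 209.99 and 220.5 after kainate, against 246, 230.3 and 243 after PBS, a difference of -0.22 ± 0.14 (limma adjusted p = 0.861). Calb1 read 355, 331 and 260.1 after kainate, against 409, 372 and 389.5 after PBS, a difference of -0.32 ± 0.19 (limma adjusted p = 0.861).

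Whether the kainate effect differed between the 5 times was tested directly with an F test. Hpca was the only member to pass (limma adjusted p = 0.0235), where 6.62% of all probe sets did. The call was lost, leaving 0 members, without the first or the third kainate array of 24 h or without the first PBS array of 24 h. It was also lost when the replicate number was added to the fit as a block. The Hpca effect at 24 h was lower than that at 1 h by -0.75 ± 0.17 on the log2 scale (limma adjusted p = 0.0125). At 240 h the effect was higher than that at 24 h by 0.76 ± 0.17 (limma adjusted p = 0.0104). Of all probe sets 3.79% passed between 24 and 1 h and 5.65% between 240 and 24 h. At 240 h Hpca read 2071, 1975 and 1994 after kainate, against 1652, 1719 and 2274 after PBS, and the groups overlapped.

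Nrgn L09119_g_at also differed between 24 and 1 h, by -0.61 ± 0.17 (limma adjusted p = 0.0463), a call that held in 6 of 18 fits and was lost without any 1 of 10 of the 12 arrays of these times, with an adjusted p of up to 0.138 without the third kainate array of 24 h. No member passed between 24 and 6 h, where the smallest limma adjusted p was 0.0973, for Vsnl1, and 5.24% of all probe sets passed. Between 72 and 24 h no member passed either, with a smallest limma adjusted p of 0.487, for Hpca, where 0.746% of all probe sets passed. A fall that was called at 24 h and not at 72 h is thus not shown to differ between these times.

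An effect at any of the 5 times was found for 4 of 8 member probe sets, beside 9.33% of all. These were Hpca (limma adjusted p = 0.00815), both Nrgn probe sets (0.0146 for L09119_g_at and 0.0349 for L09119_at) and Pvalb (0.0422). Vsnl1 did not pass this broader test (limma adjusted p = 0.0590). The count of 4 was 1 without the third kainate array of 24 h. It was 2 without the first or the third kainate array of 72 h, and 2 without any 1 of the PBS arrays of 24 h and 72 h.

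Averaged over the 5 times, Pvalb had the largest fall of the members. Its mean log2 difference was -0.36 ± 0.08 (limma adjusted p = 0.00616), with 4.41% of all probe sets passing. In time order, the Pvalb means were 144, 143, 118, 151 and 167 after kainate and 176, 186, 170.1, 199.97 and 183 after PBS, so that kainate was lower each time. The highest kainate array was below the lowest PBS array at 6, 24, 72 and 240 h, and at 1 h the groups overlapped. Both Nrgn probe sets also had a lower mean over times, by -0.21 ± 0.06 for L09119_g_at (limma adjusted p = 0.0270) and -0.23 ± 0.06 for L09119_at (limma adjusted p = 0.0330). When 1 array was left out these values reached at most 0.0583 for L09119_g_at, which was lost without the third kainate array of 6 h or the first of 72 h. For L09119_at they reached 0.0639, and the call was lost without any 1 of 10 arrays.

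Calb1 and Pvalb were the members whose groups did not overlap at 240 h. Calb1 read 499, 348 and 581 after kainate, against 596, 631 and 635 after PBS. The PBS arrays lay close together and the kainate arrays were spread below them. The log2 difference was -0.41 ± 0.19 (limma adjusted p = 0.378), and it was -0.20 without the second kainate array. At 1 h and 6 h its differences were 0.23 and 0.19, and neither passed.

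Among PBS rats themselves, 3 members differed between times by an F test: Calb2 (limma adjusted p = 5.71e-06), Calb1 (0.00997) and Hpca (0.0255), beside 16.9% of all probe sets. Labels of the 6 and 72 h arrays are worded unlike those of the other times, so that the late level was set against the mean of 1 and 24 h, a contrast chosen after the values were seen. What the labels do not give about these rats and arrays, such as age or handling, cannot be told apart from time.

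Calb2 was lower at the end of the series in both treatments. The Calb2 means after kainate were 364, 286, 276, 206 and 159.9 at 1, 6, 24, 72 and 240 h, and those after PBS were 345, 338, 368, 239.9 and 163. At 240 h the single arrays read 170.3, 152 and 157 after kainate, and 148, 163 and 176 after PBS, all below every array of 1 and 24 h. Relative to 1 and 24 h, Calb2 at 240 h was lower by 1.97-fold after kainate (log2 -0.98 ± 0.12, limma adjusted p = 3.15e-06) and by 2.18-fold after PBS (log2 -1.13 ± 0.12, limma adjusted p = 3.93e-07). The comparison passed for 10.8% of all probe sets after kainate and 8.49% after PBS. At 240 h the difference between treatments was -0.02 ± 0.14.

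Calb1 went the opposite way to Calb2 after PBS. Its level at 240 h was 1.66-fold that at 1 and 24 h after PBS (log2 0.73 ± 0.16, limma adjusted p = 0.00561), and after kainate the difference of 0.39 ± 0.16 did not pass (limma adjusted p = 0.124), although without the second kainate array of 240 h it was 0.60 and passed (0.0330). The kainate effect on Calb1 was not shown to differ between 240 and 1 h, by -0.64 ± 0.27 (limma adjusted p = 0.313). Hpca at 240 h was above the mean of 1 and 24 h in both, by 1.69-fold after kainate (log2 0.76 ± 0.11, limma adjusted p = 1.80e-05) and 1.30-fold after PBS (log2 0.38 ± 0.11, limma adjusted p = 0.0267). In time order, the Hpca means were 1503, 1559, 942, 1635 and 2013 after kainate and 1406, 1750, 1476, 1901 and 1882 after PBS. After PBS the means of 6 and 72 h, which this contrast leaves out, were thus also above those of 1 and 24 h. The Hpca call after PBS was lost without the third PBS array of 240 h (0.23, limma adjusted p = 0.240), the third of 1 h (0.0590) or the second of 24 h (0.0613), and with only the arrays of 1, 24 and 240 h (0.0655). In kainate rats the 24 h value of Hpca, which is low, is part of the level that 240 h is set against. Vsnl1 at 240 h after kainate was above the mean of 1 and 24 h by 0.41 ± 0.11 on the log2 scale (limma adjusted p = 0.0163). This call was lost without the second (0.0742) or the third (0.0760) kainate array of 240 h and with array weights (0.0722). The Vsnl1 means after kainate were 664, 701, 430, 641 and 713 in time order. The low 24 h value is thus part of this difference too, and a late rise above the 1 h level is not shown by it. After PBS the same Vsnl1 difference was 0.17 (limma adjusted p = 0.376).

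How the members varied with each other was described by correlation over 30 arrays, after taking each time's mean off the log2 values. These points share arrays and scaling as well as the treatment, so no p is given. The pair of Nrgn probe sets correlated with r = 0.88. Hpca correlated with Nrgn at 0.70 on both probe sets, Vsnl1 with Nrgn L09119_g_at at 0.72, and Calb2 with Nrgn L09119_at at 0.73. Calb1 was loosely tied to the rest, at 0.04 to 0.37. Pcp4 was negative with Hpca, Vsnl1, Calb2, Pvalb and both Nrgn probe sets, between -0.40 and -0.30.

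**Figure D3:**
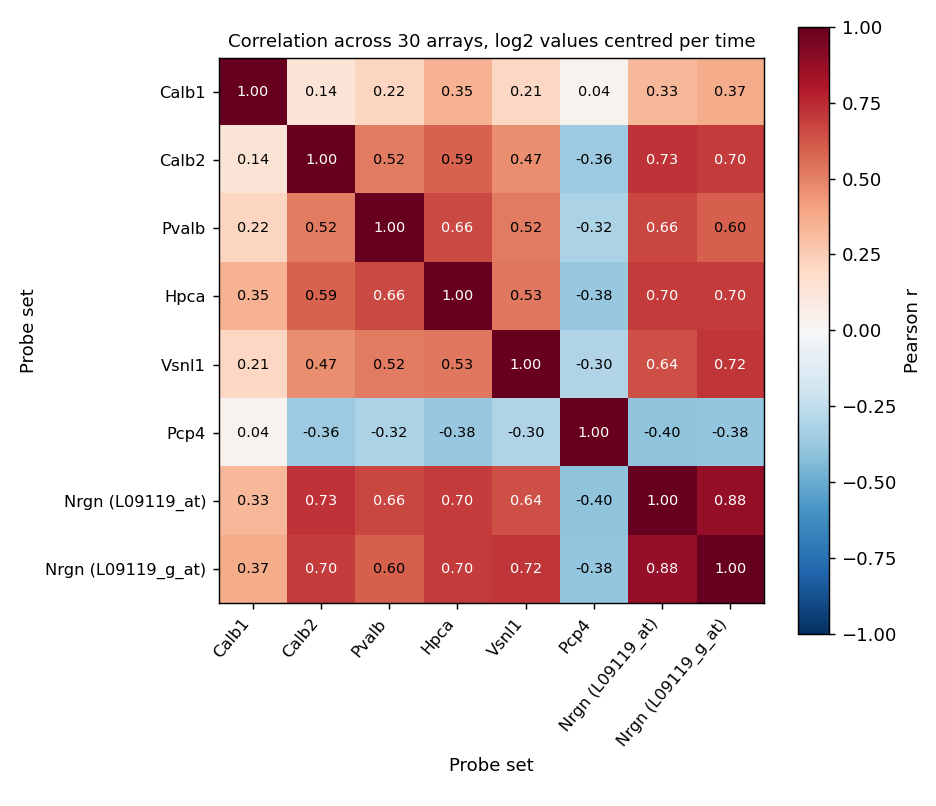
Pearson r between each pair of member probe sets over 30 arrays, from log2 signals centred within each time, with probe sets on both axes and r as colour. Nrgn, Hpca, Vsnl1, Calb2 and Pvalb form a positive block, the Nrgn pair reaching 0.88, while Pcp4 is negative with each of them, down to -0.40.

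The genes whose values over the 30 arrays were most like each member, among 3701 others, were taken as the 3 with the highest r. For Hpca these were Kctd13 (r = 0.82), Map1a (0.81), a protein of dendritic microtubules, and Aldoc (0.81), a glycolytic enzyme of astrocytes. Those of Vsnl1 were Ntsr2 (0.83), Sub1 (0.78) and Eif2s3 (0.74). Nrgn L09119_g_at was followed by Camkv (0.83), a kinase-like protein that binds calmodulin, Sub1 (0.81) and Ppp3ca (0.81), the catalytic subunit of calcineurin. Pcp4 had Rps6 (0.74) and Rpl27 (0.72), which code for ribosomal proteins, and Prdx1 (0.70), a peroxidase. Calb1 had Dync1i2 (0.81), Ppp3cb (0.78) and Azin1 (0.78), Calb2 had Ntf3 (0.72), Myl7 (0.71) and Rin1 (0.70), and Pvalb had Cyp2e1 (0.76), Tlcd1 (0.73) and Pnlip (0.72).

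Other genes of calcium handling were taken from 3 lists. The first holds relatives of the sensors, such as Hpcal1, Hpcal4, Ncs1 and Cabp1, and 4 of its 16 genes were tested. None passed at any time, with limma adjusted p-values at 24 h between 0.216 for Hpcal1 and 0.923 for Ncs1. Their log2 differences at 24 h were 0.51 for Hpcal1, -0.31 for Hpcal4, 0.09 for Ncs1 and -0.19 for Cabp1, and their median was -0.05, the same as over all probe sets.

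Of calmodulin and its binding partners 20 of 28 genes were tested, and at 24 h 5 fell and 0 rose, with a list median of -0.16. Those that fell were Camk2a, Ppp3ca, Itpka, Camkk1 and Gap43. Ppp3ca, the calcineurin subunit, averaged 898 ± 137 after kainate and 1754 ± 128 after PBS (SD, n = 3 each), a log2 difference of -0.98 ± 0.12 (limma adjusted p = 3.36e-06). Camk2a, a calmodulin-dependent kinase of excitatory synapses, averaged 17.8 ± 8.45 after kainate and 64.1 ± 7.88 after PBS, with 1 of 3 kainate arrays at the floor (limma adjusted p = 0.000239). This was 1 of 2 Camk2a probe sets, and the other one went the opposite way without passing (0.50, limma adjusted p = 0.470). Itpka, an inositol phosphate kinase, fell by 0.87 on the log2 scale, Camkk1 by 0.60 and Gap43, a growth cone protein that like neurogranin binds calmodulin, by 0.57. Calm2, which codes for calmodulin itself, had a difference of -0.04 (limma adjusted p = 0.892).

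Pumps, exchangers and stores were represented by 18 of 19 genes, of which 4 fell and 0 rose at 24 h, with a list median of -0.29. Itpr1, the main calcium release channel of neuronal stores, averaged 147 ± 28.7 after kainate and 296 ± 31.9 after PBS (limma adjusted p = 0.000243), on 1 of 4 probe sets. Atp2b4, a plasma membrane calcium pump, averaged 17.4 ± 8.09 after kainate and 66.5 ± 9.86 after PBS (limma adjusted p = 0.00304), with 1 of 3 kainate arrays at the floor and 1 of 2 probe sets passing. The other Atp2b4 probe set was at 0.06 (limma adjusted p = 0.962). Atp2b2, a pump of the same family, fell by 0.85 on the log2 scale (limma adjusted p = 0.00156). Atp2a2, the pump that fills the endoplasmic reticulum, fell by 0.68 (limma adjusted p = 0.000833). No gene of the 3 lists passed at 1, 6, 72 or 240 h.

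**Figure D4:**
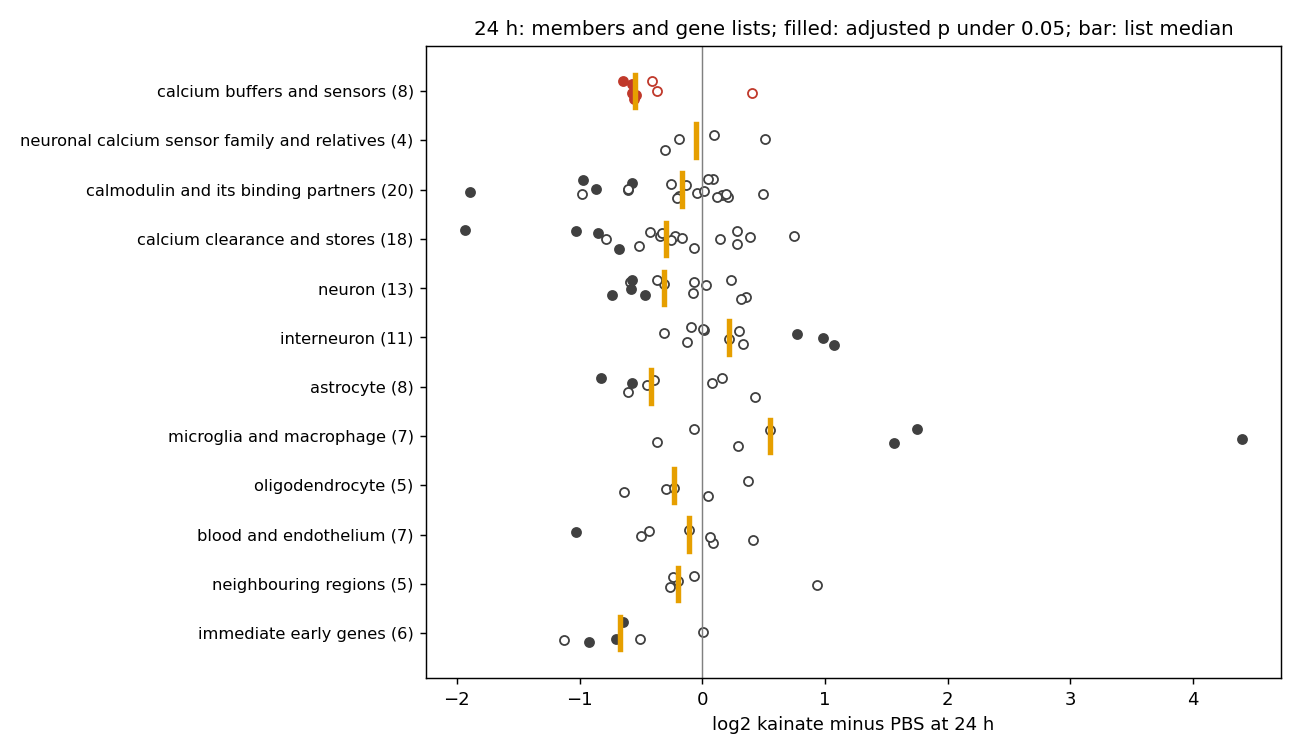
Log2 kainate minus PBS at 24 h (horizontal axis) for the member probe sets and for the genes of each list (vertical axis, number tested in brackets), filled where the limma adjusted p is under 0.05, with a bar at each median. The members' median is -0.55, with 5 of 8 filled, that of calmodulin partners is -0.16 with 5 of 20 filled, and that of pumps and stores is -0.29 with 4 of 18 filled.

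Cell type markers moved at 24 h as well, and their part in the members' values was not tested. The summed signal of the 13 neuron markers was 12883 to 13487 on the kainate arrays and 14486 to 16422 on the PBS arrays. Their median was -0.31, and 4 of 13 were lower (Nefl, Nefh, Gap43 and Uchl1). The others did not pass. Of these, Map2 (0.36), Grin1 (0.31), Syn1 (0.24) and Mapt (0.03) were above 0. Syt1 (-0.59), Syn2 (-0.37), Snap25 (-0.31), Thy1 (-0.07) and Nefm (-0.07) were below 0. Nefh passed on 1 of 2 probe sets, the other being at 0.29 (limma adjusted p = 0.484), and Uchl1 passed on 1 of 3. Astrocyte markers summed to 6282 to 7072 after kainate and 7787 to 8152 after PBS, with 2 of 8 lower (Aldoc and S100b). The others did not pass, with Slc1a2 (0.43), Glul (0.16) and Slc1a3 (0.08) above 0 and Gja1 (-0.60), Aqp4 (-0.45) and Aldh1l1 (-0.39) below 0. Oligodendrocyte markers summed to 5998 to 6522 after kainate and 7414 to 7588 after PBS, with none passing.

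Microglia and macrophage markers summed to 969 to 1198 after kainate and 407 to 459 after PBS at 24 h, and 3 of 7 were higher. These were C1qb, Cd74 and Lgals3, and over all times 14 PBS arrays were at the floor for Cd74 and 4 for Lgals3. Aif1 (0.56), C1qc (0.29), Cx3cr1 (-0.07) and Ptprc (-0.37) did not pass. Interneuron markers summed to 6223 to 7628 after kainate and 5495 to 6090.3 after PBS. Of these, 3 of 11 were higher, the neuropeptide genes Npy, Tac1 and Penk, and none passed as lower. Npy, Tac1 and Penk had also passed as higher at 6 h. A sum that includes them does not count the cells that hold Pvalb and Calb2. Gad1, which makes the enzyme for GABA synthesis, had a difference of -0.31 (limma adjusted p = 0.206), and Gad2 one of 0.01 (limma adjusted p = 0.986). Slc32a1 and Reln, at -0.13 and 0.01, did not pass either (limma adjusted p = 0.708 and 0.989).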

How the data were processed

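Intensity values, linear and 1 per array for each probe set, were used as deposited for 30 arrays. The sources used here do not give how the authors computed them. Their trimmed means (2% off each end) lay between 150.1 and 150.2. Arrays were brought to equal trimmed means, floored at the 20th percentile (signal 10.95) and put on the log2 scale. Tests took probe sets above the 40th percentile (35.2) on at least 3 of 30 arrays, which kept 6303 of 8740 that are not controls. limma 3.58.1 in R 4.3.3 fitted 10 group means with an intensity trend, with Benjamini-Hochberg adjustment and a threshold of 0.05. Contrasts were kainate minus PBS at each time, their mean, differences and F tests. Figures used Python 3.11.15 and matplotlib 3.10.9, and the fit was checked on simulated data.

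Named genes are all members, the 2 passing genes with the largest change of each list of calcium handling, and each member's 3 most alike genes. Further list genes were named after their values were seen. Members and lists were chosen with earlier results of these data known. Where a gene had several probe sets, the one with the highest mean stood for it in lists.

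Alternatives were quantile normalization, no filter, a floor at the 40th percentile, array weights, a replicate block, fewer arrays, and leaving out each array.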

Additional observations from a re-analysis of the deposited data

Results flagged for a closer look

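The kainate effect on Hpca differed between the 5 times by the F test of the fit over all 30 arrays (limma adjusted p = 0.0235). Its log2 kainate minus PBS was 0.10, -0.16, -0.65, -0.22 and 0.11 in time order, each with a standard error of 0.12. The call was lost without the first or the third kainate array or the first PBS array of 24 h, and with a replicate block. Groups of 3 arrays are too small for a test of single arrays that stand apart, so none was made.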

How the results depend on the processing

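Hpca, Vsnl1 and Nrgn L09119_g_at passed at 24 h in 14 of 14 fits, Nrgn L09119_at in 12, Pvalb in 4, Calb2 in 2 and Pcp4 in 1. The count of 5 member probe sets at 24 h became 3 with only the 6 arrays of that time, and 3 to 6 when 1 array was left out, with 3 without kainate replicate 3. At 72 h array weights gave 2 in place of 0. The count with an effect at any time, 4, was 1 to 5 when 1 array was left out. Replicate numbers were not taken to pair the arrays, since deviations of same-numbered kainate and PBS arrays correlated between -0.07 and 0.17 over 15 pairs, only 3 of them above 0.1. With a replicate block the count whose effect differed between times was 0, so that the call for Hpca was lost, Pvalb at 24 h was lost (limma adjusted p = 0.0685) and probe sets passing at 72 h were 0. Quantile normalization gave 2 members whose effect differed between times, and leaving out 1 array 0 to 1.

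Over all probe sets, the 69 passing at 1 h were 31 with only the 6 arrays of that time, 43 with the arrays of 1, 24 and 240 h, and 51 to 96 when 1 array was left out. The 248 at 6 h were 633 with array weights, 481 with the arrays of 6 and 72 h and 163 to 279 with 1 left out. The 714 at 24 h were 256 with the 6 arrays, 343 with those of 1, 24 and 240 h and 336 to 715 with 1 left out. The 3 at 72 h were 10 without a filter, 7 with the higher floor, 153 with array weights, 0 with the 6 arrays, 5 with those of 6 and 72 h and 0 to 1 with 1 left out. The 3 at 240 h were 13 without a filter, 1 with the higher floor, 0 with either smaller set of arrays and 0 to 19 with 1 left out. The cause of these shifts was not tested, beyond the smaller sets having fewer arrays. The fits with the arrays of 6 and 72 h or of 1, 24 and 240 h were chosen after seeing the data.

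Small differences that had not passed changed sign. With quantile normalization Pcp4 at 240 h became 0.0050, and with array weights Vsnl1 at 6 h became 0.057. Leaving out 1 array gave the log2 ranges -0.038 to 0.22 for Calb2 at 1 h and -0.085 to 0.039 at 240 h, -0.14 to 0.060, -0.16 to 0.017 and -0.21 to 0.0082 for Nrgn L09119_at at 1, 6 and 240 h, -0.029 to 0.080, -0.16 to 0.020 and -0.19 to 0.030 for Nrgn L09119_g_at at the same times, -0.17 to 0.086 and -0.22 to 0.086 for Pcp4 at 1 and 240 h, and -0.11 to 0.092 and -0.15 to 0.018 for Vsnl1 at 6 and 240 h. No difference that had passed changed sign in the fits run. The mean fall of Pvalb over the 5 times passed in 36 of 36 fits, and the late decline of Calb2 in 16 of 16 in each treatment.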
